A study of Caenorhabditis elegans with 12 samples.

Results

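The 36 genes of the Caenorhabditis elegans mitochondrial genome were examined as sources of small RNA reads in animals with and without the hrde-2(gg517) allele. They were taken as all identifiers on chromosome MtDNA of the WBcel235 annotation and comprised 12 protein-coding, 2 rRNA and 22 tRNA genes, out of 46726 identifiers listed. All 36 were present in the count table and passed the filter on low counts. The mitochondrial genome is a small circle that encodes core subunits of the respiratory chain, the rRNAs of the mitochondrial ribosome and a set of tRNAs for translation inside the organelle. Its transcripts are made as long precursors and cut into single RNAs, and in many animals the excised tRNAs mark the cutting points. In small RNA libraries such genes can contribute processed or broken pieces of their own transcripts as well as small RNAs copied from them.

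Small RNAs came from adult whole animals kept at 20 °C, in 12 samples that form 4 groups of 3. YY1312, the control, has the allele hrde-1(gg594), while YY1192 has both hrde-1(gg594) and hrde-2(gg517), so that all groups share the hrde-1 allele. Each strain was fed bacteria with either L4440 dsRNA, from the empty vector, or oma-1 dsRNA, which matches an oocyte gene of the nucleus. Control animals on L4440, control animals on oma-1 dsRNA, hrde-2 animals on L4440 and hrde-2 animals on oma-1 dsRNA are named in this order throughout. The deposited table holds 1 pooled column for each group, so the spread between the 3 samples of a group could not be measured, and intervals cover counting error only. The labels give the control samples 1 sequence of 5′ barcode and the hrde-2 samples another, so barcode and genotype cannot be told apart. In whole animals, fewer cells of a type and less RNA per cell cannot be told apart either.

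Reads assigned to genes numbered 25323188, 34238988, 39077097 and 16057238 in the 4 groups, and mitochondrial genes held 74989, 100280, 163134 and 56474 of them. As a check of the food labels, oma-1 had 37 and 148 reads in the groups on L4440 and 10881 and 5250 in the groups on its own dsRNA. Reads at hrde-2 (7, 13, 50 and 14) are small RNA reads and do not check its allele. All 36 mitochondrial genes are annotated on the plus strand, and since the labels and file headers do not state the strand setting of the counting, reads from a transcript and from small RNAs copied from it cannot be told apart. Neighbouring genes overlap in 8 of 35 places, by 28 nt at most, and reads there may have been listed as ambiguous, a class that held 40.4 to 42.4% of all reads. None of the 34 mitochondrial genes with 1000 reads or more in total had near-equal reads (within 5% or 15 reads in every group) to another such gene.

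The mitochondrial genome gave a small part of each library. Its share of gene-assigned reads was 0.296 and 0.293% in the control groups, and 0.417 and 0.352% in the hrde-2 groups. Protein-coding genes took 40.2, 40.4, 43.9 and 40.2% of the mitochondrial reads. Transfer RNA genes took 42.9, 46.7, 32.03 and 43.4%, and rRNA genes 16.9, 12.9, 24.02 and 16.4%. The hrde-2 group on L4440 thus stood apart by a low tRNA and a high rRNA share, while the protein-coding share differed by under 4 percentage points between any groups.

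Levels between genes are compared per gene length, as reads scaled to library depth (CPM) per kb on the scale of the trimmed mean of M values (TMM). In control animals on L4440, protein-coding genes ranged from 66.4 to 559.8 CPM per kb with a median of 139.6, the 2 rRNA genes stood at 360.3 and 551 CPM per kb, and tRNA genes ranged from 48.6 to 10897 CPM per kb with a median of 410.2. The range within the tRNA genes was 224-fold, against 8.43-fold within the protein-coding genes. The tRNA genes MTCE.36 and MTCE.1, which are the last and the first gene on the linear map of the circle, were the highest of all members in control animals.

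**Figure D1:**
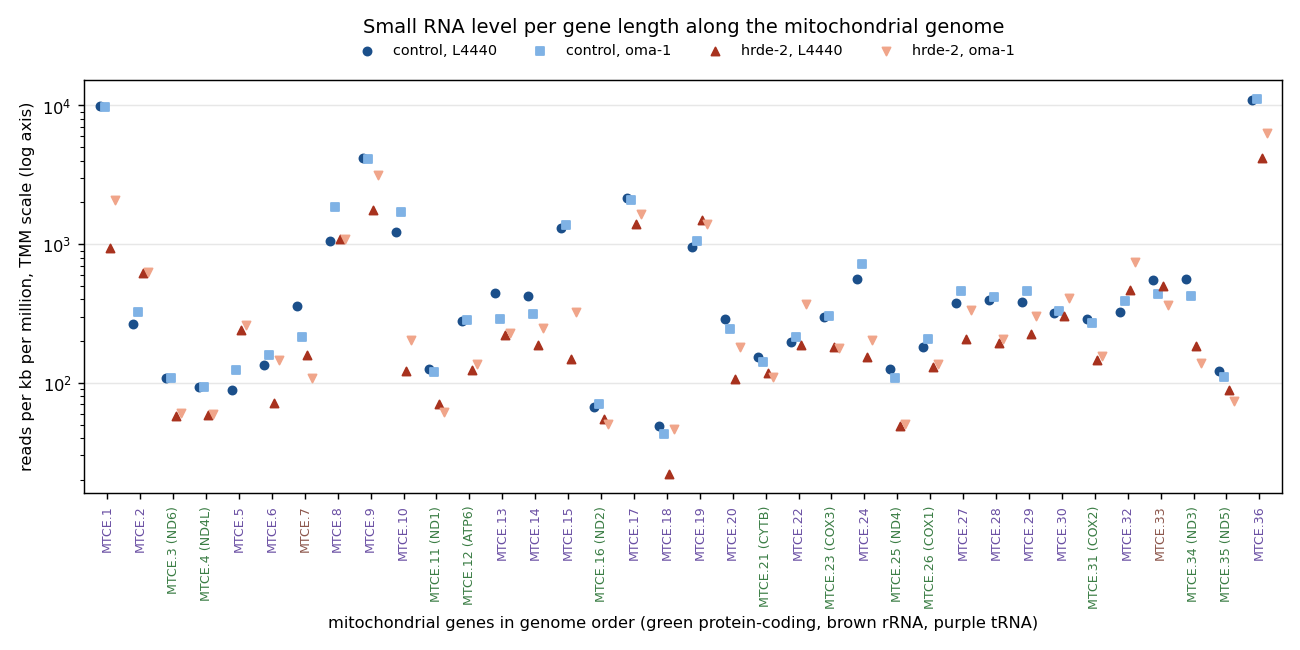
Each point is the level of 1 mitochondrial gene in 1 group, in CPM per kb on the TMM scale (log axis), with genes on the horizontal axis in genome order. MTCE.1 and MTCE.36 reach 9881 and 10897 in control on L4440, and MTCE.1 is at 932 and 2093 in the hrde-2 groups.

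Among subunits of complex I, the NADH dehydrogenase that feeds electrons into the respiratory chain, ND3 had the highest level per length. ND3 (MTCE.34, WBGene00010966, MtDNA 11356 to 11691) stood at 559.8, 420.0, 183 and 139 CPM per kb in the 4 groups. Its hrde-2 values lay below its control values on both foods. The other complex I genes had lower levels, from 66.4 CPM per kb at ND2 to 126 at ND1 in control on L4440.

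Genes of the later complexes had intermediate levels per length. COX1 (MTCE.26, WBGene00010964, MtDNA 7827 to 9428), which encodes the catalytic subunit of cytochrome c oxidase, had 4730, 7540, 14015 and 4788 reads, the most of any mitochondrial protein-coding gene. Per length it stood at 180.3, 206.4, 131 and 137 CPM per kb, below COX2 at 286, 271, 147 and 156 and COX3 at 299, 303, 182 and 179. For CYTB, the cytochrome b of complex III, the levels were 153, 142, 117 and 111 CPM per kb, and for ATP6, a subunit of the ATP synthase, 281, 285, 124 and 137. At each of these 5 genes both hrde-2 values were below both control values on this scale, an order that turned for their fitted differences under library size alone.

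The first comparison asks how small RNA reads at mitochondrial genes differ between animals with and without hrde-2(gg517). Across both foods, 12 of the 36 genes differed between the genotypes in an additive fit of genotype and dsRNA, 2 higher and 10 lower in hrde-2 (edgeR quasi-likelihood test, adjusted p under 0.05). Of the 16329 features in that fit, 18.6% were called, 8.95% higher and 9.7% lower. At an unadjusted p under 0.05 the counts were 24 of 36 genes and 29.4% of all features. The 2 genes that rose were tRNA genes, MTCE.2 and MTCE.5. The 10 that fell were 6 tRNA genes (MTCE.1, MTCE.10, MTCE.15, MTCE.20, MTCE.24 and MTCE.28), the shorter rRNA gene MTCE.7, and the protein-coding genes ATP6, ND4 and ND3. This fit has 1 residual degree of freedom, so the spread was borrowed from all features, and its p-values do not measure the spread between animals or cultures.

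The sign of the fitted difference turned with the scaling at 24 of the 36 genes, 4 of them among the 12 called. Relative to control on L4440, TMM scaled hrde-2 on L4440 by 4.08 and library size by 1.54. With TMM the median of all 16329 features was at a log2 difference of 0.02 and with library size alone at 1.24. The tRNA genes MTCE.1, MTCE.10 and MTCE.15 were called lower, and MTCE.2 and MTCE.5 higher, under the main fit and under each of the 8 alternatives run. For ATP6, MTCE.7, MTCE.20 and MTCE.28, the log2 difference was above 0 under library size alone, at 0.096, 0.13, 0.28 and 0.20, with no call. ND4, ND3 and MTCE.24 stayed below 0 under every alternative but were not called under library size alone, with edgeR adjusted p of 0.978, 0.365 and 0.140. ND4 and ND3 were also not called with the authors' factors (0.261 and 0.0535).

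**Figure D2:**
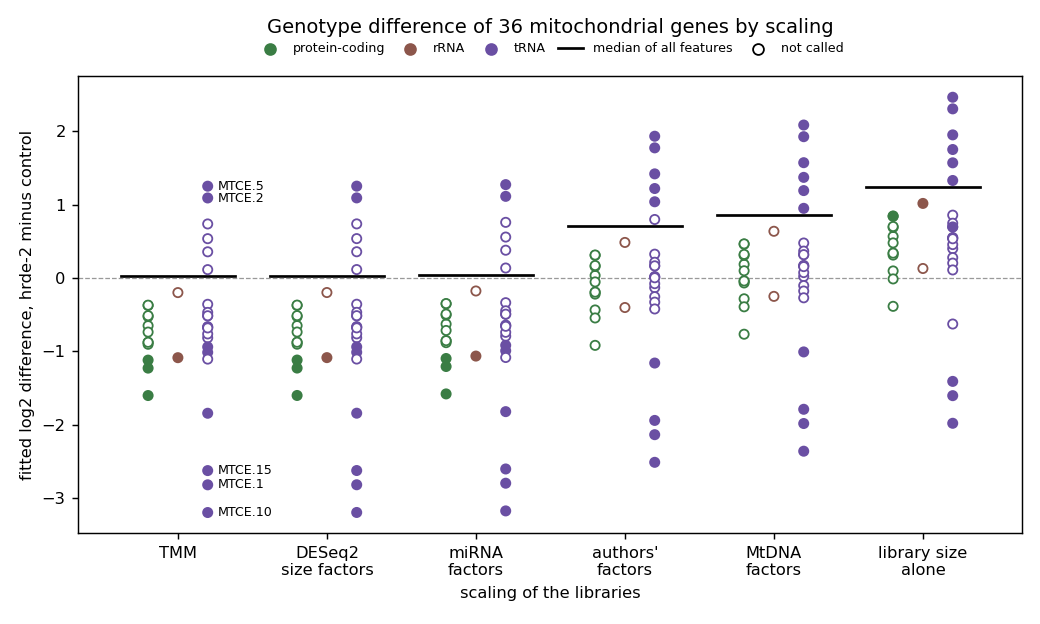
Points are the fitted log2 differences (hrde-2 minus control, over both foods) of the 36 genes under 6 scalings of the libraries, filled where edgeR's adjusted p is under 0.05, and black bars are the median of all features. The bar moves from 0.02 under TMM to 1.24 under library size alone, while MTCE.10, MTCE.1 and MTCE.15 stay below 0 and MTCE.2 and MTCE.5 above it.

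Of the tRNA genes that fell, MTCE.1 had by far the most reads. MTCE.1 (WBGene00014450, MtDNA 1 to 55) had 8899 and 12326 reads in the control groups and 3420 and 2513 in the hrde-2 groups, or 543, 541, 51.3 and 115 CPM. Both hrde-2 values were below both control values, in CPM and in raw reads. The gene was named for its call in these same counts, so this order is no further support. The ratio of hrde-2 to control was 0.0943 (95% interval 0.0906 to 0.0981) on L4440 food, against 0.213 (0.204 to 0.222) on oma-1. Over both foods the log2 difference was −2.82, with an edgeR adjusted p of 5.39e-08, and of at most 2.39e-04 under the alternatives.

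The tRNA genes MTCE.10 and MTCE.15 fell by a like amount. MTCE.10 (WBGene00014457, MtDNA 1707 to 1761, next to ND1) had 1098, 2153, 448 and 245 reads, or 67.1, 94.4, 6.71 and 11.2 CPM. Its ratios were 0.100 (0.0895 to 0.112) and 0.119 (0.104 to 0.136), with a log2 difference over both foods of −3.20 and an edgeR adjusted p of 3.05e-13. This was the lowest value among the 36 genes. MTCE.15 (WBGene00014460, MtDNA 3362 to 3416) shares 28 nt with the annotated span of ND2 and had 1185, 1721, 541 and 387 reads, or 72.4, 75.5, 8.11 and 17.7 CPM. Here the ratios were 0.112 (0.101 to 0.124) and 0.235 (0.210 to 0.262), and the log2 difference was −2.63, with an edgeR adjusted p of 2.13e-09. At both genes the hrde-2 groups had fewer reads than the control groups even before scaling, although hrde-2 on L4440 was the deepest library.

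The remaining tRNA genes that fell changed less. MTCE.24 (MtDNA 6450 to 6504) had 501, 906, 561 and 245 reads, or 30.6, 39.7, 8.41 and 11.2 CPM, with a log2 difference of −1.84 and an edgeR adjusted p of 4.15e-06. MTCE.28 stood at 23.5, 24.6, 11.5 and 12.3 CPM (log2 −1.01, edgeR adjusted p 0.0164), and MTCE.20 at 16.2, 13.7, 6.01 and 10.1 CPM (log2 −0.94, edgeR adjusted p 0.0165). At MTCE.24 and MTCE.28 the ratio was nearly equal on the 2 foods, whereas at MTCE.20 it was 0.370 (0.316 to 0.434) on L4440 food, against 0.740 (0.620 to 0.882) on oma-1. The call of MTCE.20 was lost in DESeq2 (adjusted p 0.152).

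The tRNA genes that rose were among those with few reads in control animals. MTCE.2 (WBGene00014451, MtDNA 58 to 111) had 234, 400, 2219 and 748 reads, or 14.3, 17.5, 33.3 and 34.3 CPM. Its ratios were 2.33 (2.03 to 2.67) and 1.95 (1.73 to 2.21), for a log2 difference of 1.09 and an edgeR adjusted p of 0.0144. MTCE.5 (WBGene00014452, MtDNA 785 to 840) had 82, 158, 896 and 322 reads, or 5.01, 6.93, 13.4 and 14.7 CPM. Its ratios were 2.68 (2.14 to 3.40) and 2.13 (1.75 to 2.59), with a log2 difference of 1.25 and an edgeR adjusted p of 6.12e-04. In both genes, named for their calls in the same counts, the hrde-2 values were above the control values on both foods. The largest adjusted p of an alternative was 0.0268 for MTCE.2 and 0.0171 for MTCE.5.

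The other 14 tRNA genes did not pass the test under TMM. Of these, MTCE.19, MTCE.22 and MTCE.32 were called higher under library size alone (edgeR adjusted p 1.19e-04, 3.23e-04 and 1.85e-05) and with the authors' factors (0.00956, 0.0151 and 0.00157), and MTCE.18 and MTCE.30 under library size alone (0.0492 and 0.00262). Under library size alone 10467 of all 16329 features were called, with a median log2 difference of 1.24. MTCE.18, at 0.70, lay below that median. With the authors' factors 5241 features were called, with a median of 0.71. MTCE.36 (WBGene00014473, MtDNA 13275 to 13327), the tRNA gene with the most reads, had 9457, 13491, 14705 and 7313, or 578, 592, 220 and 335 CPM. Both hrde-2 values were lower on the TMM scale, with ratios of 0.382 (0.372 to 0.392) and 0.566 (0.550 to 0.583), but the edgeR adjusted p was 0.0665, and in DESeq2 it was 0.0199. MTCE.9 stood at 230, 225, 97.2 and 172 CPM and MTCE.17 at 128, 125, 84.3 and 99.2 CPM. MTCE.19, next to MTCE.20 and 8 nt before it, stood at 51.5, 56.8, 81.1 and 75.9 CPM, and MTCE.32 at 17.4, 21.1, 25.2 and 40.3 CPM, both with higher values in the hrde-2 groups. MTCE.8 had 54.7, 96.4, 56.4 and 56.8 CPM, so that only control on oma-1 stood apart. The gene with the fewest reads, MTCE.18, had 43, 53, 79 and 55 and was under 5 CPM in every group.

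**Figure D3:**
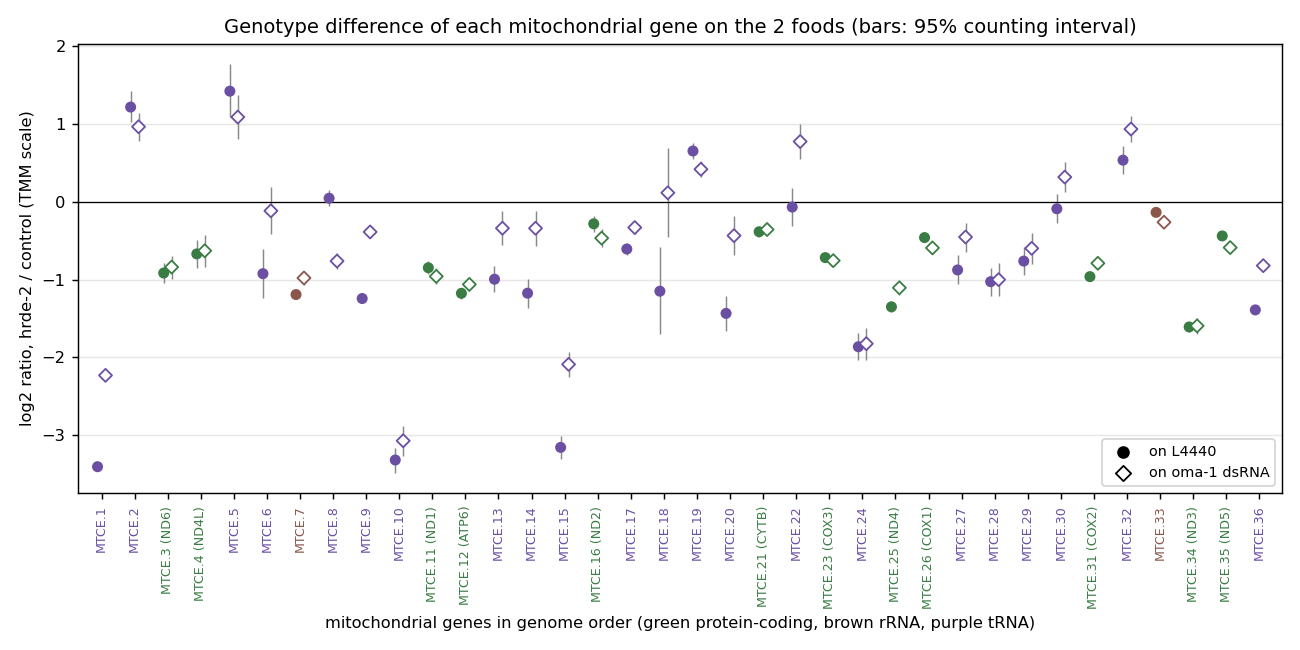
For each mitochondrial gene in genome order, the points give the log2 ratio of hrde-2 to control on L4440 (filled circles) and on oma-1 dsRNA (open diamonds) on the TMM scale, with the 95% counting interval. Protein-coding genes lie between −1.61 and −0.28, all below 0 on this scale though mostly above 0 under library size alone, and tRNA genes spread from −3.41 to 1.42.

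Neighbouring tRNA genes could differ widely. In 5 of 12 pairs of adjacent tRNA genes the log2 genotype differences had opposite signs under TMM. Of all 35 pairs of neighbours, 12 did. Of the 5 tRNA pairs, only MTCE.1 with MTCE.2 kept opposite signs under library size alone. Under that scaling MTCE.9 with MTCE.10 and MTCE.14 with MTCE.15 also had opposite signs. MTCE.1 and MTCE.2 lie 2 nt apart, and the reads of MTCE.1 per read of MTCE.2 numbered 38.03 and 30.8 in the control groups against 1.54 and 3.36 in the hrde-2 groups. This ratio within a library does not depend on the scaling. Likewise MTCE.10 lies 4 nt after MTCE.9, and their read ratio was 0.291 and 0.419 in control and 0.0691 and 0.0651 in hrde-2. Reads of MTCE.1 per read of MTCE.36, the tRNA genes on either side of the map's origin, numbered 0.941 and 0.914 in control and 0.233 and 0.344 in hrde-2. The log2 genotype differences of adjacent tRNA genes lay a median of 0.92 apart, against 0.79 over all 35 pairs of neighbours.

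Shares of the mitochondrial reads, which are also free of the scaling between libraries, separated control from hrde-2 groups at the 5 genes called under every alternative. MTCE.1 made up 11.9 and 12.3% of mitochondrial reads in control and 2.096 and 4.45% in hrde-2. The share of MTCE.10 was 1.46 and 2.15% in control and 0.275 and 0.434% in hrde-2, and that of MTCE.15 was 1.58 and 1.72% against 0.332 and 0.685%. In the other direction MTCE.2 had 0.312 and 0.399% in control and 1.36 and 1.32% in hrde-2, and MTCE.5 had 0.109 and 0.158% against 0.549 and 0.570%. For all 5 genes the control and hrde-2 shares did not overlap, but the genes were picked by their calls in these same counts. Shares that did not overlap were also common among the genes not called, so this order does not mark out the 5. Of the protein-coding genes not called, only ND1 had shares that overlapped. COX2 had 4.38 and 4.31% in control against 4.21 and 4.23% in hrde-2. With the libraries scaled to the summed mitochondrial reads, 4 genes were called lower (MTCE.1, MTCE.10, MTCE.15 and MTCE.24) and 6 higher (MTCE.2, MTCE.5, MTCE.19, MTCE.22, MTCE.30 and MTCE.32), all of them tRNA genes. Of all 16329 features, 7376 were called under this scaling, with a median log2 difference of 0.86. The members' own sum sets this scale, so some balance of higher and lower among them is built in.

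**Figure D4:**
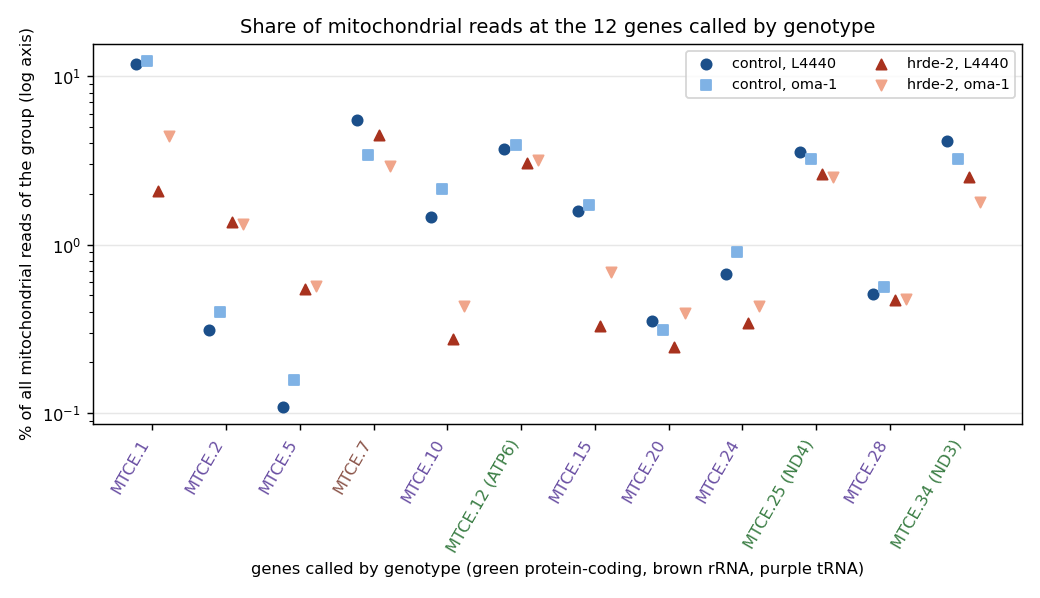
Each point is the share of a group's mitochondrial reads (percent, log axis) at 1 of the 12 genes called by genotype, by group. MTCE.1 drops from 11.9 and 12.3% in control to 2.096 and 4.45% in hrde-2, and MTCE.5 stands at 0.109 and 0.158% in control and 0.549 and 0.570% in hrde-2.

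Protein-coding genes lay in a narrow band. The log2 differences over both foods ran from −1.60 at ND3 to −0.37 at CYTB, a span of 1.23, while tRNA genes spanned 4.45. All 12 lay below 0 under TMM, where library size alone put 9 of them above 0 on both foods, and 3 of 12 were called lower and 0 higher; for nuclear protein-coding genes 8.09% were called lower and 8.30% higher. Summed over the 12 genes, reads numbered 30152, 40493, 71696 and 22715, a ratio of hrde-2 to control of 0.584 (0.576 to 0.591) on L4440 food, against 0.586 (0.576 to 0.595) on oma-1. These ratios were 0.585 and 0.585 with DESeq2 size factors and 0.599 and 0.588 with factors from miRNA genes, but turned to 1.02 and 0.864 with the authors' factors and to 1.54 and 1.196 with library size alone.

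By complex, ND3 and ND4 of complex I and ATP6 of complex V fell. ND3 had 3080, 3218, 4114 and 1020 reads and ratios of 0.328 (0.313 to 0.344) and 0.331 (0.308 to 0.355), with an edgeR adjusted p of 9.11e-04. For ND4 (MTCE.25, WBGene00010963, MtDNA 6506 to 7808), 2674, 3218, 4273 and 1432 reads gave ratios of 0.392 (0.374 to 0.412) and 0.465 (0.436 to 0.495) and an edgeR adjusted p of 0.0152. ATP6 (MTCE.12, WBGene00010960, MtDNA 2634 to 3235) had 2768, 3914, 4991 and 1795 reads, ratios of 0.442 (0.422 to 0.464) and 0.479 (0.453 to 0.507) and an edgeR adjusted p of 0.0318. The edgeR call of ATP6 was also lost without the filter on low counts (adjusted p 0.0608).

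The other complex I genes and all genes of complexes III and IV did not pass the test. In complex I, ND6 had 780, 1078, 1685 and 577 reads, ND4L 358, 496, 917 and 307, ND1 1807, 2375, 4091 and 1170, ND2 958, 1409, 3209 and 976, and ND5 3142, 3981, 9446 and 2535. Their log2 differences ran from −0.90 at ND1 to −0.37 at ND2. In complex IV, COX2 had 3283, 4319, 6868 and 2391 reads (log2 −0.88) and COX3 3775, 5336, 9356 and 3024 (log2 −0.74), while COX1 was at −0.53. CYTB had 2797, 3609, 8731 and 2700 reads. All of these values were above 0 under library size alone, between 0.31 at ND1 and 0.85 at CYTB, where CYTB was then called higher (edgeR adjusted p 0.0449). Each lay below the median of all features under that scaling, 1.24.

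The 2 rRNA genes differed from each other. The shorter gene, MTCE.7 (WBGene00014454, MtDNA 898 to 1593, 696 nt), had 4106, 3412, 7322 and 1657 reads, or 251, 150, 110 and 75.9 CPM. The longer gene, MTCE.33 (WBGene00014472, MtDNA 10403 to 11354, 952 nt), had 8590, 9517, 31867 and 7599 reads, or 525, 417, 478 and 348 CPM. MTCE.7 fell under TMM, with ratios of 0.438 (0.421 to 0.455) and 0.507 (0.478 to 0.538), a log2 difference of −1.09 and an edgeR adjusted p of 0.0418, which was lost without the filter on low counts (0.0817). The call was also lost under library size alone, where the log2 difference was 0.13 (edgeR adjusted p 0.759). It was lost too with the authors' factors (0.411) and with factors from MtDNA genes (0.582). MTCE.33 had ratios of 0.910 (0.889 to 0.932) and 0.834 (0.809 to 0.860) and an edgeR adjusted p of 0.820, but under library size alone it was called higher (log2 1.02, edgeR adjusted p 0.0178). The median of all features under that scaling was higher still, at 1.24. Reads of the longer gene per read of the shorter one numbered 2.09 and 2.79 in control and 4.35 and 4.59 in hrde-2, a ratio that no scaling alters.

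Nuclear tRNA and rRNA genes also differed by genotype in these libraries under TMM. Of 242 nuclear tRNA genes tested, 47.1% were called lower and 3.31% higher in hrde-2, against 6 and 2 of the 22 mitochondrial ones. Of 20 nuclear rRNA genes, 75% were called lower. On L4440 the median log2 difference was −1.68 over 225 nuclear tRNA genes and −0.92 over 21 mitochondrial ones at 5 CPM or more, and on oma-1 dsRNA −0.69 and −0.39, where all features compared stood at −0.47 and −0.39. The part of these shared shifts in the mitochondrial values was not tested. All of them are on the TMM scale. Under library size alone the features compared stood at medians of 0.93 and 0.64, and the nuclear sets were not run there. At 2-fold or more and 5 CPM or more in the higher group, 2 mitochondrial genes were higher and 13 lower in hrde-2 on L4440, where 13.1% and 29.5% of all 2138 features were, and 1 higher and 7 lower on oma-1 dsRNA, where 13.8% and 27.8% of 2122 were.

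The genotype differences on the 2 foods rest on separate columns, and their values lay side by side for most genes. Of the 36 genes, 28 were lower and 4 higher in hrde-2 on both foods under TMM, and 5 lower and 28 higher under library size alone. At 5 CPM or more under TMM, 671 of 2138 features were above 0 on L4440 and 762 of 2122 on oma-1 dsRNA. The mitochondrial counts above 0 were 5 and 6 of 35. Over the 36 genes the Pearson r of the log2 differences was 0.892 and their Spearman rho 0.736, as a description over genes that share libraries and depth. Protein-coding genes differed between the foods by at most 0.245 in log2 under TMM and 0.555 under library size alone. Transfer RNA genes differed by up to 1.25 and 1.18, and 18 of 22 had the higher value on oma-1 dsRNA under TMM, or 13 of 22 under library size alone, where 7 and 0 of the 12 protein-coding genes did.

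The second comparison asks whether eating oma-1 dsRNA altered mitochondrial reads. None of the 36 genes was called for dsRNA over both genotypes by edgeR, where 0.178% of all features were. An unadjusted p under 0.05 was found at 2 of them, MTCE.6 and MTCE.18, and at 4.72% of all features. DESeq2 called 0 as well. In control animals no mitochondrial gene was 2-fold apart at 5 CPM or more, where 0.647% of 2010 features were higher and 0.299% lower. Protein-coding genes ranged from −0.41 to 0.19 in log2 (median −0.05), and tRNA genes from −0.63 to 0.82 (median 0.12 over 21 genes).

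In hrde-2 animals the protein-coding genes again stood near 0, with a median log2 difference of 0.01 and a range of −0.40 to 0.14 under TMM, but all 12 were below 0 under library size alone (median −0.32). Transfer RNA genes were mostly higher on oma-1 dsRNA, with a median of 0.44 and 20 of the 21 compared above 0. Over all 22 tRNA genes, 21 were above 0 under TMM and 15 under library size alone. MTCE.1, MTCE.15 and MTCE.6 were at least 2-fold higher, with ratios of 2.25 (2.13 to 2.36), 2.19 (1.91 to 2.50) and 2.04 (1.68 to 2.48). Of the 1853 features compared there, 3.78% were 2-fold higher and 1.08% lower. Under library size alone, and under the authors' factors, 0 mitochondrial genes were 2-fold higher. Nuclear tRNA genes had a median of 0.46 in hrde-2 and −0.34 in control, values whose part in the mitochondrial ones was not tested.

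Ribosomal RNA genes of the mitochondrion were lower on oma-1 dsRNA in both genotypes under each scaling run. MTCE.7 had ratios of 0.597 (0.570 to 0.625) in control and 0.692 (0.655 to 0.730) in hrde-2, and MTCE.33 had 0.796 (0.773 to 0.819) and 0.729 (0.711 to 0.747). Neither passed the test over both genotypes, and these contrasts have no replicate check. The 2 genes together held 12696, 12929, 39189 and 9256 reads, and their summed ratio was 0.731 in control and 0.722 in hrde-2 under TMM and 0.753 and 0.575 under library size alone. The protein-coding genes ND1, ND3, ND5 and CYTB were also lower on oma-1 dsRNA in both genotypes under each scaling run. For ND3 the ratios were 0.750 in control and 0.758 in hrde-2 under TMM. None of these genes passed the test over both genotypes either.

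**Figure D5:**
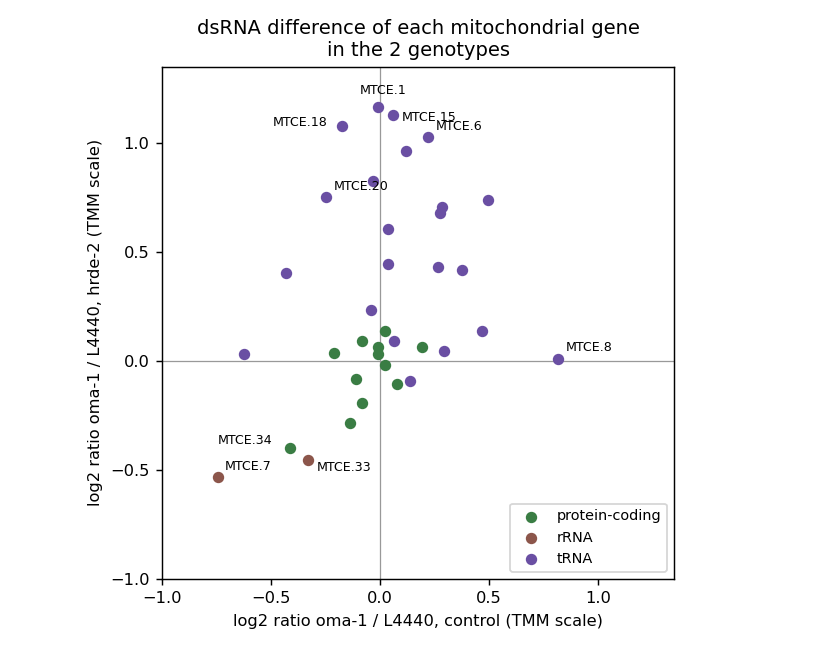
Each point is 1 mitochondrial gene, with its log2 ratio of oma-1 dsRNA to L4440 in control animals on the horizontal axis and in hrde-2 animals on the vertical axis (TMM scale). Protein-coding genes cluster near 0 on both axes (all are below 0 on the vertical axis under library size alone), the 2 rRNA genes lie below 0 on both, and tRNA genes reach 1.17 on the vertical axis, where none is 2-fold higher under library size alone. ND3 (MTCE.34) also lies below 0 on both axes, at −0.41 and −0.40.

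Nuclear genes for the same machinery gave fewer reads. Among 30 nuclear genes of complex I, 2 were called higher and 2 lower in hrde-2, where 8.3% and 8.09% of all nuclear protein-coding genes were, and among 7 of complex IV 0 and 1. Of 9 genes of complex III with cytochrome c, 1 was called higher and 0 lower. The edgeR count was 0 for the 9 nuclear genes of the ATP synthase (complex V) and for the 4 of complex II, with 1 gene of each at an unadjusted p under 0.05 and 0 called by DESeq2. For 69 mitochondrial ribosomal protein genes the numbers were 1 and 1, and for 5 genes of mtDNA upkeep and transcription 0 and 1. At an unadjusted p under 0.05 there were 10 genes of complex I, 2 of complex III, 4 of complex IV, 5 of the ribosomal proteins and 1 of mtDNA upkeep, where 29.4% of all features were. Over the 7 lists DESeq2 called 1 gene, of complex I. The 30 nuclear complex I genes together had 896, 1029, 2759 and 971 reads, fewer than COX1 alone in each group.

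Only 5 genes of these lists reached 5 CPM. Of them nuo-1, which encodes a flavoprotein subunit of complex I, had 110, 118, 135 and 46 reads and fell, with a log2 difference of −1.54 and an edgeR adjusted p of 1.65e-07. The complex I gene nuo-4 had 108, 125, 274 and 81 reads (log2 −0.63, edgeR adjusted p 0.0847). The ATP synthase genes atp-1 (233, 258, 788 and 302 reads), atp-2 (284, 319, 1055 and 353) and atp-5 (105, 143, 491 and 132) had log2 differences of 0.01, 0.04 and 0.08, which did not pass the test. Mitochondrial ATP6, a subunit of the same enzyme, was at −1.12 on the same scale.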

How the data were processed

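Small RNA reads of 12 samples were deposited as 1 table. Per the file headers it holds raw read counts per WormBase identifier in 1 column per group, and a signal normalized by the authors to library size, which in every row equals the count over a constant of the column (1, 1.34, 2.33 and 0.87). HTSeq 0.6.1 is named in the submitters' processing notes. The labels and headers state no aligner, build, strand setting or way of pooling the samples. Per the labels' protocols, 2 µg of small RNA was cloned independently of a 5′ monophosphate, with barcodes of 4 and 6 nt. Rows without a gene (59.9 to 65.3% of reads) were left out.

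Positions and classes came from the WBcel235 annotation, which matched 46364 of 46726 identifiers, and names of the 12 protein-coding members from RefSeq by position. What each tRNA gene carries is not annotated in these sources. Features were kept by filterByExpr of edgeR 4.0.16 (minimum count 10, total 15), leaving 16329. The fit was glmQLFit (robust) with dsRNA and genotype as terms and TMM scaling, with Benjamini-Hochberg adjustment over all features at 0.05. DESeq2 1.42.0, other scalings and no filter were alternatives. Before use the fit was run on simulated counts with a fixed spread, no dsRNA difference and scaling by library size. That run does not bear on the disagreement between scalings in these data. Ratios carry exact 95% Clopper-Pearson intervals, which like the depth of each column cover counting error only, and log2 differences of single contrasts a prior count of 0.5. Genes that reached 5 CPM in either group (81.9, 114, 333.6 and 109.2 reads) were compared at 2-fold. All 36 members could be named; from nuclear lists, the highest and lowest 2 at 5 CPM. Members and lists were chosen with earlier results of these data known.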

Additional observations from a re-analysis of the deposited data

Results flagged for a closer look

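At 4 genes the difference between the foods had opposite signs in the 2 genotypes under TMM, with counting intervals that exclude a ratio of 1 in both. The difference between the genotypes was not tested, since each group has 1 column. MTCE.14 had a log2 difference of −0.43 on oma-1 dsRNA in control and 0.40 in hrde-2, and MTCE.20 had −0.25 and 0.75. MTCE.19 went the other way, with 0.14 in control and −0.0945 in hrde-2. The 1 protein-coding gene among them, MTCE.31 (COX2), had −0.0821 and 0.0894, but −0.04 and −0.24 under library size alone and −0.03 and −0.10 with the authors' factors. Under library size alone, MTCE.14, MTCE.19 and MTCE.20 kept their signs, but only MTCE.19 of them still met both conditions. Of 1584 features at 5 CPM or more, 30.1% met the same conditions under TMM, against these 4 of the 35 mitochondrial genes compared. Under library size alone 41.6% of 1386 features met them, against 6 of 34 mitochondrial genes. Those were MTCE.2, MTCE.8, MTCE.16, MTCE.19, MTCE.23 and MTCE.26.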

How the results depend on the processing

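The split of higher and lower mitochondrial genes turned with the scaling, and the cause was not tested. Called by genotype were 2 higher and 10 lower under TMM, 9 and 3 with library size alone, 5 and 4 with the authors' factors, and 6 and 4 with factors from MtDNA genes. The last, and TMM without MtDNA genes, were chosen after seeing the data. DESeq2 size factors, factors from miRNA genes, no filter, DESeq2 and TMM without MtDNA genes gave 2 higher and 8 to 10 lower. Calls over all 16329 features also moved, with 3045 under TMM and 10467 with library size alone. The authors' factors gave 5241 such calls, factors from MtDNA genes 7376 and DESeq2 1092. The other fits of the same features called 3007 to 3060, and the one without the filter 2629 of 30423. Called for dsRNA were 0 in each of these settings. At 2-fold, hrde-2 on L4440 had 2 higher and 13 lower in the main setting, against 10 and 3 with library size alone, 4 and 4 with the authors' factors and 4 and 3 with MtDNA factors. On oma-1 dsRNA these counts were 1 and 7, against 6 and 3, 4 and 5, and 6 and 4. The 3 genes higher on oma-1 dsRNA in hrde-2 became 0 with library size alone and with the authors' factors. A minimum of 10 CPM, no minimum and a prior count of 2 moved no such count beyond 1.5 times.

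Log2 genotype differences that were below 0 under TMM turned above 0 for 24 genes with library size alone (0.096 at MTCE.12, 0.11 at MTCE.36, 0.13 at MTCE.7, 0.20 at MTCE.28, 0.28 at MTCE.20, 0.31 at MTCE.11, 0.34 at MTCE.3, 0.34 at MTCE.31, 0.40 at MTCE.9, 0.46 at MTCE.14, 0.48 at MTCE.23, 0.54 at MTCE.29, 0.55 at MTCE.13, 0.55 at MTCE.27, 0.57 at MTCE.4, 0.69 at MTCE.26, 0.70 at MTCE.18, 0.70 at MTCE.6, 0.70 at MTCE.35, 0.75 at MTCE.17, 0.84 at MTCE.16, 0.85 at MTCE.21, 0.86 at MTCE.8, 1.02 at MTCE.33). With the authors' factors this held for 13 (0.0033 at MTCE.29, 0.013 at MTCE.13, 0.019 at MTCE.27, 0.035 at MTCE.4, 0.16 at MTCE.26, 0.17 at MTCE.18, 0.17 at MTCE.6, 0.17 at MTCE.35, 0.21 at MTCE.17, 0.31 at MTCE.16, 0.31 at MTCE.21, 0.33 at MTCE.8, 0.48 at MTCE.33), and with factors from MtDNA genes for 16 (0.02 at MTCE.9, 0.074 at MTCE.14, 0.099 at MTCE.23, 0.16 at MTCE.29, 0.16 at MTCE.13, 0.17 at MTCE.27, 0.19 at MTCE.4, 0.31 at MTCE.26, 0.32 at MTCE.18, 0.32 at MTCE.6, 0.32 at MTCE.35, 0.37 at MTCE.17, 0.46 at MTCE.16, 0.47 at MTCE.21, 0.48 at MTCE.8, 0.64 at MTCE.33).

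Shares by class depend on the denominator. Of all reads listed, protein-coding members held 0.0461, 0.0474, 0.0637 and 0.0493% in the 4 groups, rRNA members 0.0194, 0.0151, 0.0348 and 0.0201% and tRNA members 0.0491, 0.0548, 0.0464 and 0.0532%. Relative to the reads of all protein-coding genes the values were 0.849, 0.791, 1.15 and 0.916%, then 0.358, 0.253, 0.630 and 0.373%, and 0.905, 0.916, 0.840 and 0.988%. No paired analysis was possible because the table has 1 pooled column per group, and for the same reason no replicate could be left out. Depth limits MTCE.18 most, with 43 to 79 reads.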

Other observations

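Reads of mitochondrial mRNA genes placed high among all protein-coding genes. By reads, COX1 ranked 33, 31, 35 and 40 among them in the 4 groups and COX3 ranked 39, 42, 47 and 54, while the lowest of the 12, ND4L, ranked 249, 254, 354 and 351. The 12 genes held 0.849, 0.791, 1.15 and 0.916% of all reads at protein-coding genes. The 22 mitochondrial tRNA genes held 0.214, 0.255, 0.246 and 0.255% of all tRNA reads, and the 2 rRNA genes 0.341, 0.190, 0.678 and 0.561% of all rRNA reads.

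Longer mitochondrial protein-coding genes tended to have more reads, less closely in the control than in the hrde-2 groups. Across the 12 genes, length and reads correlated at a Pearson r of 0.567, 0.604, 0.741 and 0.702 and a Spearman rho of 0.448, 0.504, 0.671 and 0.657 in the 4 groups, as a description over genes of the same libraries. ND3, at 336 nt, had 3080 reads in control on L4440, close to the 3142 of ND5 at 1582 nt, and in hrde-2 on L4440 they had 4114 and 9446. MTCE.36 and MTCE.1 together held 57.1 and 55.1% of mitochondrial tRNA reads in control and 34.7 and 40.1% in hrde-2.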
